A study of Mus musculus with 4 samples.

Results

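The clustered replication-dependent histone genes encode the core histones H2A, H2B, H3 and H4 and the linker histone H1 that package newly copied DNA. Their peaks of Pcbp1, a poly-C-binding protein with KH domains known to bind RNA and DNA, were read from 2 lists of chromatin immunoprecipitation sequencing (ChIP-seq) peaks. The rule for members uses names and no peak values, though histone genes were taken up with earlier results of these data known. Members are the protein-coding genes of the RefSeq table of build GRCm38.p6 whose symbol or older symbol begins with Hist1h, Hist2h, Hist3h or Hist4h. This gave 67 genes of 21887, namely 6 of class H1, 18 of H2A, 18 of H2B, 12 of H3 and 13 of H4. A gene is called marked when the summit of a peak lay no more than 1 kb from the first or last annotated base of the gene, and such a peak is called a gene-end peak.

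The cells were the mouse embryonic stem cell line E14 Tg2a, adapted for 3 passages to serum-free 2i-LIF-N2B27 medium with the MEK inhibitor PD0325901 (1 uM) and the GSK3β inhibitor CHIR99021 (3 uM); these were the Naive cells. They were converted to the primed, epiblast-like state (EpiLC) over 48 hours on Fibronectin in N2B27 with bFGF (12 ng/ml), Activin A (20 ng/ml) and 1% KOSR. Chromatin sheared to about 500 bp was precipitated with 12 ug of a Pcbp1 antibody. Each condition had 1 ChIP library and 1 input library of a single cell line, so the conditions could not be tested against each other and no value below carries replicate error.

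Fold is the enrichment at the summit that the authors' peak caller wrote, over its own background. The pileup is the number of fragments over the summit, recovered from fold and p-value, and the 95% intervals given for folds are Poisson intervals from it, covering counting error only. The Naive list held 12132 peaks and the EpiLC list 3494. The EpiLC list rested on higher coverage, with a median summit pileup of 45 against 24 and a lowest background of 7.43 against 4.004. The labelled states were set beside marker genes: of 10 naive pluripotency markers 8 were marked in the Naive list and 1 in the EpiLC list, of 8 primed markers 0 and 5, and of 5 fibroblast markers 0 and 1, where 19.3% of all protein-coding genes were marked in Naive and 5.61% in EpiLC. A ChIP peak of Pcbp1 does not measure expression of these markers.

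Replication-dependent histone genes are short and without introns, lie in clusters, and are transcribed mostly in S phase at nuclear histone locus bodies organised by Npat. Their mRNAs end in a stem-loop in place of a poly(A) tail, which the stem-loop-binding protein Slbp and the U7 small nuclear ribonucleoprotein recognise during cleavage. H2A and H2B genes often stand head to head and share a promoter region.

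Clustered histone genes were marked at shares well above those of protein-coding genes at large. In Naive, 55 of 67 were marked (82.1%), where 19.3% of all protein-coding genes were. In EpiLC the count was 40 of 67 (59.7%), against 5.61%. Both lists marked 39 histone genes (4.09% of all protein-coding genes had a peak in both), Naive alone marked 16, EpiLC alone marked 1 and neither marked 11. Genes of a cluster share peaks, so these are not 67 separate observations: the 55 genes rested on 53 distinct Naive peaks, of which 26 reached 2 or 3 histone genes, and the 40 genes on 37 distinct EpiLC peaks, of which 16 did. Core histone genes of a class are known to be similar in coding sequence, and the counting of reads that match several copies is not known here, so which copy a peak belongs to is uncertain. This was not tested, and no coding sequence was compared. No peak of either list at a histone gene end lay within 1 kb of another protein-coding gene. The same shares were read for short genes and per length of window. Among 1515 other protein-coding genes under 1 kb long, 1.32% were marked in Naive and 0.462% in EpiLC. Both shares lie far below those of all protein-coding genes. This set may therefore differ from the histone genes in more than length, which was not examined. Counting each base of the gene-end windows once, the histone windows spanned 136 kb and held 39.0 Naive and 27.2 EpiLC summits per 100 kb, where those of all other protein-coding genes held 4.79 and 1.32. With summits allowed 500 bp from a gene end, 52 histone genes in Naive (16.4% of all protein-coding genes) and 37 in EpiLC (4.27%) were marked. Within 3000 bp these counts were 59 (23.8%) and 50 (7.53%), and with −log10 q held to 5 or more they were 51 (15.4%) and 33 (4.59%).

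The H3 and H4 genes were marked most completely. Of 13 H4 genes, 12 were marked in Naive and 11 in EpiLC, and of 12 H3 genes, 11 and 10 were. Some H3 genes counted only through a peak with its summit in an adjoining H2A or H2B gene. In EpiLC these were H3c14 (summit in H2ac18, 848 bp away) and H3c2 (in H2ac4, 825 bp), and in Naive H3c13 (in H2bc18, 729 bp). The H2A genes had 15 of 18 in Naive and 10 in EpiLC, the H2B genes 13 of 18 and 7, and the H1 genes 4 of 6 and 2. Most of the genes marked in Naive alone were thus of the nucleosome's H2A and H2B pair, with 6 genes of each class, against 1 H3 gene (H3c10), 1 H4 gene (H4c2) and 2 H1 genes (H1f5 and H1f2). Each of these 6 H2A genes shared its Naive peaks with an adjoining H2B gene of the 6, so the same peaks were counted in both classes. H2A and H2B were also the largest classes, with 18 members each. No test of the classes against each other was made, because neighbouring H2A and H2B genes share their peaks.

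**Figure D1:**
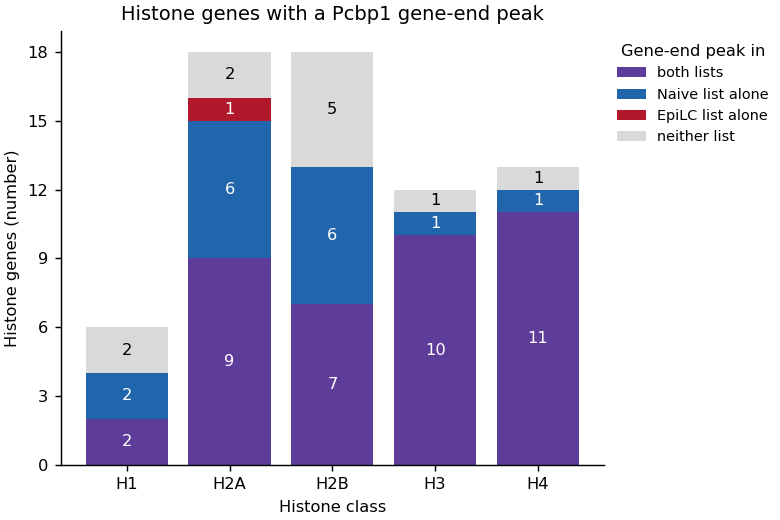
Number of histone genes (vertical axis) in each histone class (horizontal axis), split by whether a Pcbp1 gene-end peak was found in both lists, in the Naive list alone, in the EpiLC list alone or in neither. H3 and H4 genes were mostly marked in both lists (10 of 12 and 11 of 13), and H2A and H2B supply 12 of the 16 genes marked in Naive alone. These 12 are adjoining H2A and H2B genes that share their peaks. H3c14, H3c2 and H3c13, drawn under both lists, were marked in 1 of the lists only by a peak with its summit in an adjoining H2A or H2B gene.

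H4 genes held the highest histone peak of the Naive list. Hist2h4, now H4c14 (chromosome 3, 96262934 to 96263317, as all coordinates here in GRCm38), had a Naive peak of 11.19 (8.48 to 14.5), with a pileup of 55. An EpiLC peak of 3.22 (2.35 to 4.31) had its summit 10 bp away. Both summits lay outside the gene, within 1 kb of its annotated end, and H4c14 held a further EpiLC peak of 2.48 inside it and a further Naive peak of 3.797 on the other side. At H4c17 the Naive fold was 6.44 (4.66 to 8.68) and the EpiLC fold 3.31 (2.55 to 4.23), and H4c6 had 5.82 (4.08 to 8.06) and 2.74 (2.07 to 3.57). H4c18 had 6.34 (4.45 to 8.79) in Naive at a peak with its summit inside the gene, also within reach of H2ac24. In EpiLC the highest peak within reach of H4c18 was 2.72 (1.98 to 3.64), and the EpiLC peak that overlapped its main Naive peak was 2.43. The solitary H4 gene on chromosome 6, H4f16 (136803993 to 136804431), had 5.83 (4.17 to 7.95) and 2.39 (1.88 to 2.99), and the peaks of both lists covered the whole gene. H4c11 held the highest H4 peak of the EpiLC list, 3.36 (2.40 to 4.58), at a summit 75 bp before its start. Its Naive summits lay on both sides of that position, at 4.596 and 3.996.

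H3c3 and H3c11 held the highest histone peaks of the EpiLC list, which stood only at the 56.4 and 54.3 percentiles of fold among all its peaks. The Naive and EpiLC intervals overlapped at H3c3, H3c11 and H3c6. H3c3 (chromosome 13, 23745042 to 23745521) had an EpiLC fold of 3.56 (2.73 to 4.57) and 5.67 (4.02 to 7.79) in Naive, with the 2 summits 57 bp apart and both inside the gene. H3c11 had 3.52 (2.68 to 4.55) and 5.62 (3.85 to 7.94), with summits 8 bp apart. H3c6 had 3.39 (2.65 to 4.27) and 4.27 (2.91 to 6.07). The EpiLC peak of 3.43 (2.55 to 4.52) within reach of H2ac4 and H3c2 had its summit in H2ac4, 825 bp before the start of H3c2. It did not extend to H3c2 and was the only EpiLC peak within reach of that gene. In Naive these neighbours had separate peaks, 4.396 (2.80 to 6.61) in H2ac4 and 3.44 (2.11 to 5.34) in H3c2. H3c13 and H2bc18 shared an EpiLC peak of 3.35 (2.50 to 4.39) and a Naive peak of 4.20 (2.64 to 6.37), both with the summit in H2bc18, and H3c13 had in addition an EpiLC peak of 2.89 that overlapped no Naive peak. H3c14 was reached by the Naive peak of 5.91 (4.02 to 8.40) that centres on H2ac18, with 2.385 (1.82 to 3.07) in EpiLC. A nearer Naive peak of 5.25 (3.55 to 7.51), with its summit 259 bp before the start of H3c14, overlapped no EpiLC peak.

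H2A and H2B genes showed how head-to-head neighbours divide their peaks. Pairs were sought only among the 62 genes of known strand, so neighbours of genes without one, such as H2bc4 and H2bc21, could not enter. Of 10 such pairs with starts under 500 bp apart, 9 held a Naive peak and 4 an EpiLC peak. Counted over these pairs, 10 Naive summits fell inside a gene of the pair, 1 between the starts and 6 beyond the pair. In EpiLC 4 fell inside, 0 between and 3 beyond. Summits beyond a pair can lie in another histone gene, as those in H4c18 beside H2ac24 did. The 1 summit between starts was that of H2ac15 and H2bc15 (4.396, 2.80 to 6.61). At H2bc12 and H2ac12 the higher Naive peak, 5.795 (3.92 to 8.29), had its summit in H2bc12, and EpiLC marked neither gene. At H2bc7 and H2ac7 the lists parted: the Naive peak of 5.795 (3.92 to 8.29) had its summit 272 bp into H2ac7, while the EpiLC peak of 3.27 (2.48 to 4.24) had its summit 209 bp into H2bc7, and these peaks did not overlap.

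Linker histone genes were the least complete class. H1f3 (chromosome 13, 23555032 to 23555807) held the second-highest histone peak of the Naive list, 6.78 (4.73 to 9.44), beside 3.095 (2.37 to 3.97) in EpiLC. Its peaks were wide enough to cover the whole gene in both lists. H1f1 had 3.99 (2.59 to 5.90) and 3.21 (2.41 to 4.20), with overlapping intervals. H1f5 (5.395, 3.59 to 7.81) and H1f2 (4.396, 2.80 to 6.61) were marked in the Naive list alone.

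The 11 genes that neither list marked included all 3 members that are known as testis-specific, H1f6 (H1t), H2ac1 (Th2a) and H2bc1 (Th2b). The others were H2bu2 and H2aw on chromosome 11, H2bc14, H2bc9, H2bc6, H3c4, H4c3 and H1f4. H2bu2 and H2aw, the former Hist3 genes, were far from any peak, with the nearest Naive summits 500664 and 494844 bp away. H2bc9 was a near miss, with summits 1319 bp away in Naive and 1320 bp in EpiLC, and so was H3c4 in Naive at 1110 bp, the nearest outside the limit. The nearest inside was H3c13 at 729 bp. In EpiLC the corresponding genes were H3c14 at 848 bp and H2ac11 at 1266 bp. H2bc6 (23583670 to 23621124) is annotated with a long transcript, and its shorter transcript starts inside it at 23585970. A Naive summit of 4.396 (2.80 to 6.61) lay 19 bp from that start and an EpiLC summit of 2.10 (1.55 to 2.80) lay 192 bp from it. With such starts counted, 56 genes in Naive and 41 in EpiLC had a peak. H2ac10 was the gene marked in EpiLC alone, at 2.63 (1.92 to 3.505), with the nearest Naive summit 1280 bp away.

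**Figure D2:**
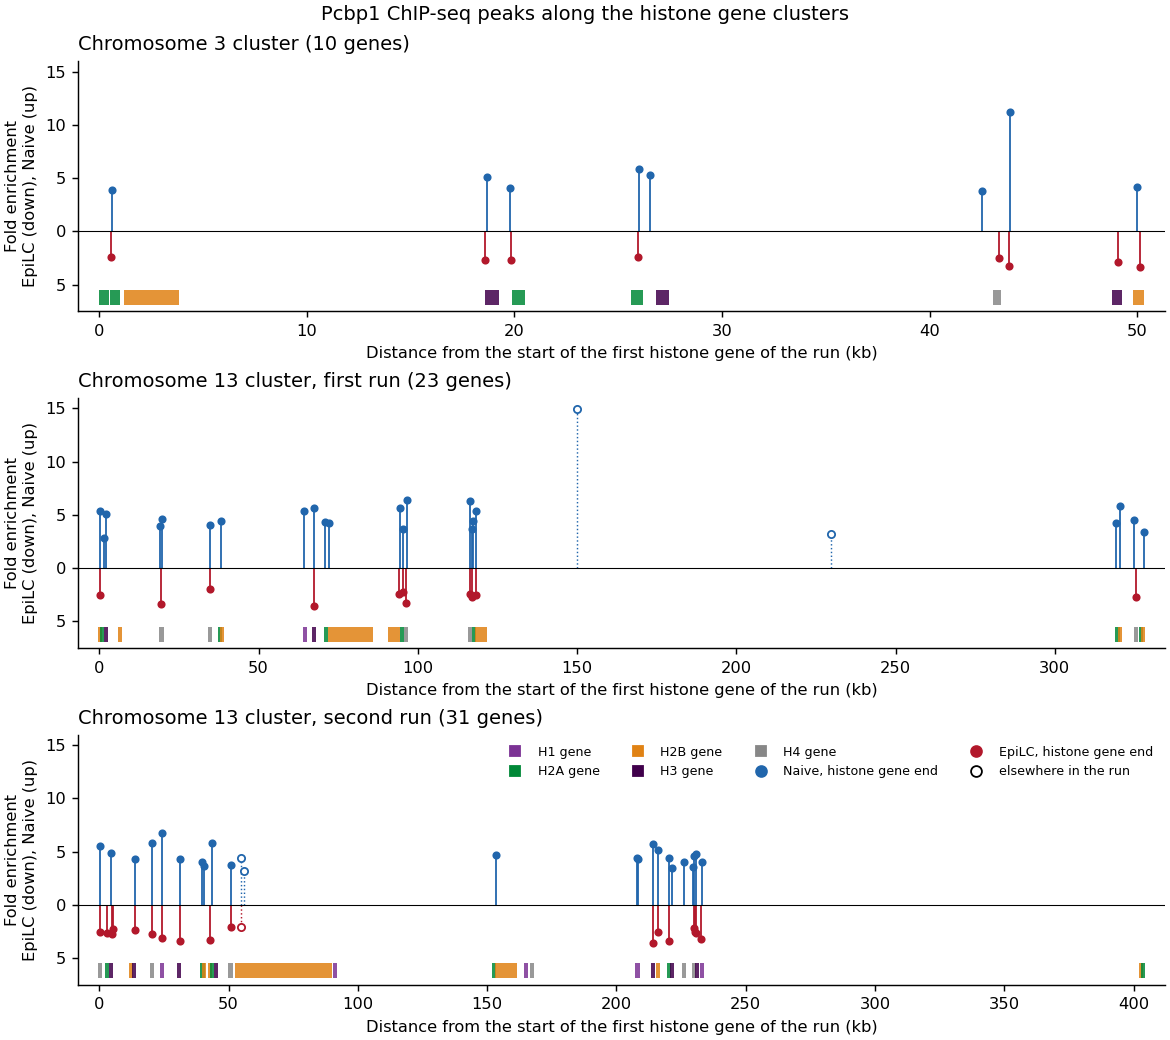
Fold enrichment of Naive peaks (upward, blue) and EpiLC peaks (downward, red) along the histone runs of chromosomes 3 and 13, against the distance in kb from the first histone gene of each run. Boxes are the annotated genes coloured by class, drawn no narrower than a minimum width, and open circles are peaks not at a histone gene end. Peaks stand over groups of genes, and the stretches between the groups hold few.

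Few peaks in the histone clusters lay away from histone gene ends. A run was defined as histone genes less than 500 kb apart. In the chromosome 3 run of 10 genes over 50.3 kb, both lists marked all 10. In the first chromosome 13 run of 23 genes over 327.9 kb, 22 were marked in Naive and 12 in EpiLC, and in the second run of 31 genes over 403.9 kb, 22 and 17 did. The runs of chromosome 13 also hold 9 other protein-coding genes, among them the iron regulator Hfe, the ubiquitin ligase gene Trim38, the protease gene Prss16 and the phosphate transporter genes Slc17a1 to Slc17a4. Of these, Zfp184 alone was marked, in Naive (3.22). Only 4 Naive peaks and 1 EpiLC peak in the runs were not at a histone gene end. They were the Zfp184 peak, 2 Naive peaks and 1 EpiLC peak in H2bc6, and a Naive peak of 14.99 (11.8 to 18.8) at chromosome 13, 21865173 to 21866277. That last peak, higher than every histone gene-end peak of either list, overlapped no EpiLC peak and lay 9530 bp from the nearest annotated gene, a tRNA gene.

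Most summits lay inside the histone genes. Of the 53 Naive peaks 39 (73.6%) had the summit within an annotated histone gene, and of the 37 EpiLC peaks 29 (78.4%). Strand was taken from a RefSeq table of promoters (GRCm38.p6), which matched 62 of the 67 genes, 61 of them with a single transcript start. Among 49 such histone genes with a Naive summit within 1 kb of the start, the nearest summit lay at a median of 202 bp after the start (quartiles -50.0 and 313), and among 36 in EpiLC at 244.5 bp (124.5 and 327.8). The medians were 46.0 bp over 2835 other protein-coding genes with a Naive summit and -0.5 bp over 732 with an EpiLC summit. The nearest summit fell from 250 bp before to 50 bp after the start in 3 of the 49 histone genes in Naive (6.12%) and 1 of 36 in EpiLC (2.78%), against 29.7% and 28.8% of the other genes. Histone genes are short, and neighbours share peaks, so the position inside the gene is not independent from gene to gene. In the few other genes under 1 kb long with such a summit the median was 109 bp in Naive (18 genes) and 205 bp in EpiLC (6 genes). Of these short genes 10 in Naive (55.6%) and 2 in EpiLC (33.3%) had the summit 100 to 400 bp after the start, and 3 and 1 (16.7% in each list) had it from 250 bp before to 50 bp after. In Naive the share at 100 to 400 bp was thus as large in other short genes as in the histone genes (55.1%).

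**Figure D3:**
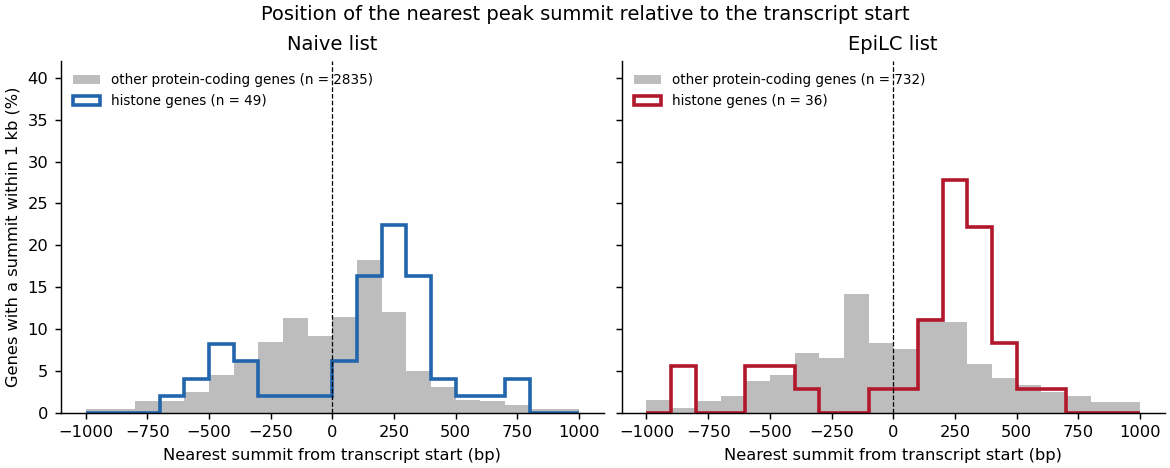
Distance in bp of the nearest peak summit from the transcript start (horizontal axis; negative values lie before the start) as a percentage of the genes with a summit within 1 kb (vertical axis), in bins of 100 bp. Grey bars are other protein-coding genes and outlines are histone genes. Histone summits gather 100 to 400 bp after the start, in 55.1% of the genes in Naive and 61.1% in EpiLC, beside 35.3% and 28.0% of other genes and 55.6% and 33.3% of the few other genes under 1 kb long (not drawn).

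Promoters are shown for the member with the highest Naive fold of each class that has an entry in that table, and for H1f4 and H4c3, which neither list marked. For 2 of these members the highest peak had its summit in a neighbouring gene. That of H2ac24 lay in H4c18, 1344 bp after the H2ac24 start, and that of H3c14 lay in H2ac18, 804 bp before the H3c14 start. The promoters let the reader compare the DNA just before the gene in marked and unmarked members. Each line gives the 150 bases before the transcript start, 5′ to 3′ on the gene's strand, from RefSeq GRCm38.p6. Capitals mark CCAAT and TATAAA on either strand (ATTGG and TTTATA on the other).
H1f3 (chr13:23554882-23555031, plus strand): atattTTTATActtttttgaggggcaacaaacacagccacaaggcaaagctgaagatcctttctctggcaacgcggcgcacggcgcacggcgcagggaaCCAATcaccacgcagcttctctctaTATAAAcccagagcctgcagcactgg
H2ac24 (chr13:21833476-21833625, minus strand): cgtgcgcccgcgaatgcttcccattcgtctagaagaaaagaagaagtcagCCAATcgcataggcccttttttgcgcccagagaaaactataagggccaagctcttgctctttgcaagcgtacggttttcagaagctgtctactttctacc
H2bc12 (chr13:22035671-22035820, plus strand): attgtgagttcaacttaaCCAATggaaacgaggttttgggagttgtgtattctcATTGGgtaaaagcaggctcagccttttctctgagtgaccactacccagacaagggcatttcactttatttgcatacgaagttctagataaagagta
H3c14 (chr3:96246535-96246684, plus strand): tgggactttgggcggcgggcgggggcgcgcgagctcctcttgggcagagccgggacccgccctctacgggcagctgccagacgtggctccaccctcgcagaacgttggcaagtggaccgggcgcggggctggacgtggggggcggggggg
H4c17 (chr13:21811596-21811745, plus strand): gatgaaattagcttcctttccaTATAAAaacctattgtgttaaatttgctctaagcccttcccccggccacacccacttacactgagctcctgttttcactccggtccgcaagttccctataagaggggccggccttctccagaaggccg
H1f4 (chr13:23622559-23622708, minus strand): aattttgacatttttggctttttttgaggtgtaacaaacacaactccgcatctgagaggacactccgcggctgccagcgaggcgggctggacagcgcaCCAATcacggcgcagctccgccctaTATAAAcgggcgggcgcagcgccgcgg
H4c3 (chr13:23698459-23698608, minus strand): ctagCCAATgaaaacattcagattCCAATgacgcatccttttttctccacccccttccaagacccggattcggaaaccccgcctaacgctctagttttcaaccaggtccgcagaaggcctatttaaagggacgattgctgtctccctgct

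The linker genes H1f3 and H1f4 both hold a CCAAT and a TATAAA close to the start, with TATAAA beginning 26 and 27 bases before it, and H1f3 was marked in both lists and H1f4 in neither. Among the 62 histone genes with a promoter entry, CCAAT (either strand, in the 250 bases before the start) was present in 51 (82.3%), against 39.3% of 17430 other protein-coding genes. It was present in all 11 of the unmarked genes and in 40 of the 51 marked ones. TATAAA was present in 29 (46.8%, against 13.6%), the octamer ATTTGCAT in 14 (22.6%, against 1.72%) and GTCCGC in 18 (29.0%, against 10.7%). Runs of C were less frequent than elsewhere: CCCC or GGGG was present in 37 histone promoters (59.7%, against 85.5%) and CCCTCCC or its reverse complement in 5 (8.06%, against 24.6%). The octamer was found in 9 of 51 marked and 5 of 11 unmarked genes, and CCCC in 29 of 51 and 8 of 11. Of the 11 unmarked genes 5 were H2B genes, and the motif counts were not split by histone class. CCCTCCC, which does not itself contain CCCC, was found in 5 and 0. These are letter matches in a window that mostly lies beside the summits, and no sequence under the summits themselves was used here.

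Histone peaks overlapped between the lists at a larger share than peaks at large, a difference that was not tested. Of 53 Naive peaks 32 overlapped an EpiLC peak (60.4%, exact binomial 95% interval 46.0 to 73.5), where 18.5% of all gene-end peaks and 13.7% of all peaks of the Naive list did. Of 37 EpiLC peaks 34 overlapped a Naive peak (91.9%, 78.1 to 98.3), where 66.7% of gene-end peaks and 48.3% of all peaks of the EpiLC list did. Both binomial intervals take the peaks as independent draws, which neighbouring peaks of a cluster need not be. Each list came from a single ChIP library, so the intervals hold no replicate error and do not serve as a test against these shares. In the 32 overlapping Naive peaks the summit of the partner lay at a median of 59.5 bp (range 1 to 600), and within 100 bp in 22. With an overlap of 50% of both peaks required, 19 peaks of each list were still shared. The share of all peaks that met this stricter rule was not computed, so the larger share is shown for the 1-base rule only. Histone peaks were also wider in Naive, at a median of 539 bp beside 374 bp at other gene-end peaks (331 and 324.5 bp in EpiLC). How far width enters the overlap was not tested.

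The enrichment itself was unremarkable in Naive and low in EpiLC. Histone gene-end peaks had a median fold of 4.396 in Naive (quartiles 3.996 and 5.395), beside 4.42 at other gene-end peaks, and 26 of 53 exceeded the median of the list (4.43). In EpiLC their median was 2.68 (2.43 and 3.21), beside 3.37 at other gene-end peaks, and 3 of 37 exceeded the median of the list (3.41). The highest histone fold was 11.19 in Naive and 3.56 in EpiLC. EpiLC pileups at histone genes were not low. The median was 55.0 fragments, beside 48.0 at other gene-end peaks. The caller's background at these EpiLC peaks was high, at a median of 2.555 times the lowest of the list, beside 1.79 at other gene-end peaks, while in Naive it was 1.13 in both sets. Setting the pileup over the lowest background of each list, in place of the local one, gave medians of 6.49 in Naive and 7.40 in EpiLC.

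In all 32 overlapping pairs the Naive fold was the higher, by a median of 1.81 times (range 1.19 to 3.48), and in 13 of them the counting intervals did not overlap. This was shared by peaks at large: in 678 other overlapping gene-end pairs the median ratio was 1.61 and the Naive fold was the higher in 594. With pileups over the lowest background in place of folds the median Naive to EpiLC ratio was 0.952 at histone genes and 1.104 at the others. The direction between states therefore turned with the scale, and with 1 library per condition neither scale was tested.

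**Figure D4:**
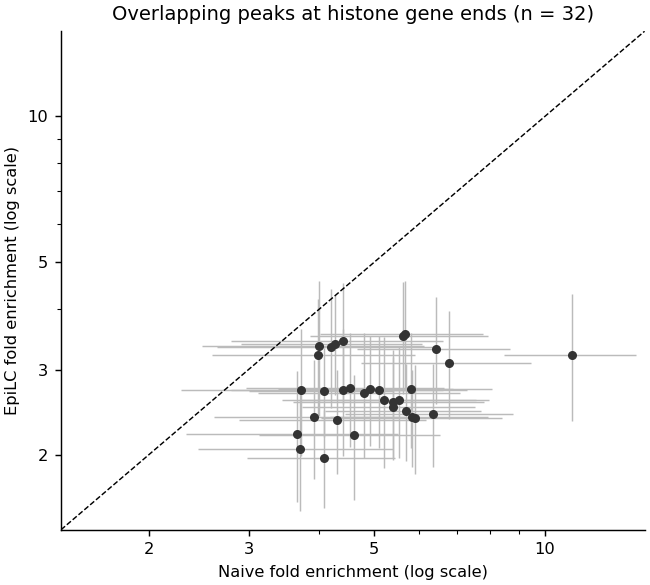
EpiLC fold against Naive fold for the 32 histone gene-end peaks of the Naive list that overlap an EpiLC peak, both on log scales. Bars are 95% Poisson counting intervals and the dashed line is equality. All 32 points lie below the line, and H4c14 stands at the far right with 11.19 in Naive.

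Histone gene-end peaks made up 0.437% of all Naive and 1.06% of all EpiLC peaks. Among peaks with a fold of at least 3 they were 52 of 11531 in Naive and 11 of 2416 in EpiLC, which are close shares. This limit was not an equal filter on the lists. It kept 11531 of 12132 Naive and 2416 of 3494 EpiLC peaks, and 52 of 53 and 11 of 37 histone peaks. With the Naive list shortened to its 3494 peaks of lowest q-value, so that both lists had the same length, 22 histone genes (32.8%) were marked in Naive, where 5.45% of all protein-coding genes were, beside 40 (59.7%) and 5.61% in EpiLC. With both full lists held to a fold of at least 3, 55 histone genes were marked in Naive (18.9% of all protein-coding genes) and 14 in EpiLC (3.79%). The state with more marked histone genes thus differed with the length of the Naive list, and no order between the states was read from these counts.

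Genes that act on histones were marked in Naive at shares above the 19.3% of all protein-coding genes, and in EpiLC at shares on both sides of the 5.61% of all protein-coding genes. These differences were not tested. Of 29 genes of the transcription and pre-mRNA processing of replication-dependent histones, 17 were marked in Naive (58.6%) and 4 in EpiLC (13.8%). The 4 genes marked in both lists were Cpsf2 (Naive 7.87, 5.87 to 10.4, and EpiLC 4.20, shared with Ndufb1) and Sympk (7.745 and 3.91), whose products belong to the cleavage machinery, the stem-loop-binding protein gene Slbp (6.39 and 3.34, shared with Tmem129), and the CCAAT-binding subunit gene Nfya (5.80 and 3.06, shared with Oard1). Hinfp, a transcription factor of H4 genes, had 6.64 (4.71 to 9.13) in Naive and none in EpiLC. Npat, the organiser of the histone locus body, was marked by neither list, nor were Casp8ap2, Lsm11, Nfyb and Nfyc.

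Histone chaperone and chromatin assembly genes had 12 of 23 in Naive (52.2%) and 1 in EpiLC (4.35%), beside 19.3% and 5.61% of all protein-coding genes. Rbbp4 led with 6.45 in Naive, at a peak shared with Zbtb8os, followed by Supt16 (5.35, shared with Chd8), Anp32e (5.35) and Nap1l4 (5.27), and Set was the gene with an EpiLC peak (4.75 and 2.27). S-phase genes, which are expressed at the same time in the cell cycle as these histones, had 12 of 23 in Naive (52.2%) and 2 in EpiLC (8.70%), beside the same 19.3% and 5.61%. The sliding clamp gene Pcna had 8.20 (5.94 to 11.1) in Naive, at a peak shared with Cds2, followed by Mcm4 (5.395, shared with Prkdc), Tyms (5.385) and Mcm7 (5.266, shared with Ap4m1). The EpiLC peaks were at Cdt1 (5.14 in Naive and 2.75 in EpiLC) and Mcm5 (2.10, in EpiLC alone).

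Histone genes outside the clusters, a list of replication-independent and variant histones, were near the background. Of 14 such genes, 4 were marked in Naive (28.6%) and 1 in EpiLC (7.14%), beside 19.3% and 5.61% of all protein-coding genes. H2az1 had 5.785 in Naive (shared with Dnajb14), H3f3a, which encodes H3.3, had 4.745 and Cenpa, the centromeric H3 gene, had 4.35. H3f3b, which also encodes H3.3 and counts as unmarked by its gene ends, had a Naive summit 250 bp after its transcript start. The difference between the clustered and the other histone genes was not tested.

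**Figure D5:**
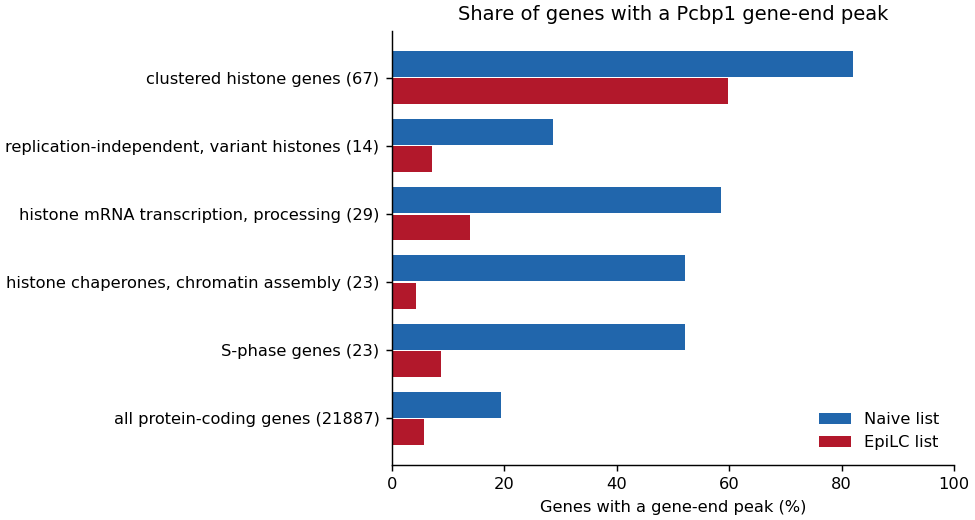
Share of genes with a Pcbp1 gene-end peak (%) in the Naive list (blue) and the EpiLC list (red) for the clustered histone genes, 4 related gene lists and all protein-coding genes, with the number of genes in parentheses. The clustered histone genes stand at 82.1% and 59.7%, and the EpiLC share of the related lists is at most 13.8%.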

How the data were processed

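Pcbp1 ChIP-seq of 2 states of E14 Tg2a cells was analysed from the authors' deposited peak lists, 1 per condition and each from 1 ChIP library. Bowtie2, fastp, MACS2 and Picard, and the build GRCm38 (mm10), are named per the submitters' processing notes, without versions or roles. The sources used here do not give read totals, the caller's control or the treatment of reads that map to several places. The last may matter for core histone genes, which are known to be similar within a class, and its effect on the peaks was not tested. H2bc23 and H4bc24 (an H2B gene, formerly Hist1h2br) are the only histone pair of 1891 with identical 250-base promoters.

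The deposited fold is a ratio over the authors' background, the deposited −log10 p-value and q-value are theirs, and the other deposited column used gives the summit's offset within the peak. Both lists reach down to a −log10 q of 2.02. Pileup and background were solved from fold and p-value (tolerance 0.001 in −log10 p), which gave a whole pileup for 100% of peaks. On simulated data 100% of 1000 pileups per list were recovered. The simulated folds and p-values were made with the same formulas that were then solved. This checks the solving only, and not whether the authors' caller used these formulas.

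Peaks were assigned to gene ends, and 2 peaks counted as overlapping from 1 shared base on, in Python 3.11.15, numpy 2.4.6, pandas 2.3.3 and scipy 1.17.1, and figures were drawn with matplotlib 3.10.9. Genes named are the 10 with the highest fold in each list with those sharing the peak, those in EpiLC alone or in neither, and those nearest the 1 kb limit. For other lists they are up to 4 of the highest. H4c2, H3c10, H1f5, H1f2, H1f1, H2ac15, H2bc15, Npat, Casp8ap2, Lsm11, Nfyb, Nfyc, H3f3b and Mcm5 were named after their values were seen. Protein identities within classes were planned and not run. The members and lists were chosen with earlier results of these data known. The values of 1 gene of the variant histone list are not reported here.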

Additional observations from a re-analysis of the deposited data

How the results depend on the processing

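Each count was recomputed with summits within 500 bp or 3000 bp of a gene end, at a −log10 q of at least 5, at a fold of at least 3, with any base of the peak, with the nearest gene only, at the transcript start only and, for Naive, with the list shortened to 3494 peaks. Of 48 recomputed values 39 stayed within 1.5 times the reported count or within the counting interval of the median fold, and 9 did not. At a fold of at least 3, the EpiLC genes fell from 40 to 14, the genes in both lists from 39 to 14 and the distinct EpiLC peaks from 37 to 11. With the shortened Naive list, the Naive genes were 22, the genes in both lists 19 and the distinct Naive peaks 16. Requiring 50% of both peaks left 19 Naive peaks and 19 EpiLC peaks overlapping. The median over the lowest background was 7.40 in EpiLC in place of a fold of 2.68. Both filters leave fewer peaks by construction. Counting other transcript starts, chosen after seeing the data, raised the Naive and EpiLC counts by 1 gene each. No paired analysis was possible because each condition had 1 ChIP library, and none could be left out.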
